A study of Mus musculus with 4 samples.

Results

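The 34 genes described here are the enzymes of glycolysis, the carriers of glucose and lactate, and genes that respond to low oxygen. A gene was taken as a member where a probe on the arrays carried a transcript accession that RefSeq assigns to its symbol. All 34 were found, with 59 of the 55681 probes that were not controls, out of 21154 genes with a named probe. All 34 were well above background on each of the 4 arrays, so no member was lost to the filter on dim probes. The arrays profiled 2 populations sorted from mouse bone marrow, LSK cells, which lack lineage markers and carry c-Kit and Sca-1 and hold the stem and early progenitor cells, and MEP cells, the progenitors of megakaryocytes and red cells. In every group the marrow came from JAK2V617F;Ezh2flox/flox;Cre-ERT2 donors, had been grafted into CD45.1+ wild-type recipients after lethal irradiation, and had undergone deletion of Ezh2, so all groups carried the genotype JAK2V617F/Ezh2Δ/Δ on the C57BL/6 strain. The groups differed in cell type and in a course of 2 weeks of JQ1, which blocks the bromodomains of BET proteins, or of its control DMSO. The 4 groups, with 1 array each, are named by treatment and cell type as DMSO or JQ1 LSK and DMSO or JQ1 MEP. JAK2V617F is an activating mutation of a cytokine receptor kinase, Ezh2 is the methyltransferase of Polycomb repressive complex 2, and Cre-ERT2 is a recombinase that works only when its ligand is given. The locus that drove the Cre, the age of the mice, how many mice were sorted for an array, and whether recipient cells were removed in the sort are not given in the sources used here.

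Glycolysis splits glucose into pyruvate in the cytosol and yields ATP without oxygen. Pyruvate is then reduced to lactate and exported, or it enters the mitochondrion. When oxygen is low, prolyl hydroxylases stop marking the factor Hif1a for destruction, and Hif1a induces most glycolytic enzymes together with genes for glucose uptake, lactate export, mitochondrial clearance and vessel growth. Myc and Hif1a are both known to bind promoters of glycolytic genes, and blood stem cells in the marrow are known for a strong reliance on glycolysis.

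The promoter stretches below are shown because they carry the letters ACGTG, the core of the hypoxia response element that Hif1a binds. The members shown were picked by hand. Where a member had several windows, the one with most cores outside a CACGTG was taken. Another window of Aldoa and another of Ldha held no core, and neither did that of the isomerase Tpi1. Each gives 250 bases before an annotated transcript start, read 5′ to 3′ on the gene's strand, from RefSeq on GRCm38.p6, with the core on either strand in capitals. They lie at chr11:120948817-120949066 (+) for the lactate exporter Slc16a3, chr7:126799255-126799504 (-) for the aldolase Aldoa, chr7:46845554-46845803 (+) for the lactate dehydrogenase Ldha, chrX:106186850-106187099 (+) for the phosphoglycerate kinase Pgk1 and chr12:54203875-54204124 (-) for the prolyl hydroxylase Egln3.
Slc16a3: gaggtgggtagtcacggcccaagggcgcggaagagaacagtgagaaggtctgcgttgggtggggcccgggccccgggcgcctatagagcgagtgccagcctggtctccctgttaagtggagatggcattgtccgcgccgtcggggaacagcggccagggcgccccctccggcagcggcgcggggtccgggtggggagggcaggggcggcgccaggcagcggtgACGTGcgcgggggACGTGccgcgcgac
Aldoa: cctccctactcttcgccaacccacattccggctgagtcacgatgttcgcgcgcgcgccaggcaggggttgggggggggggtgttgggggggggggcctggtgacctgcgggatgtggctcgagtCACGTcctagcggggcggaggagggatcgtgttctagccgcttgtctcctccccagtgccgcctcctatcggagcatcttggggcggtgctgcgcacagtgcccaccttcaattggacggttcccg
Ldha: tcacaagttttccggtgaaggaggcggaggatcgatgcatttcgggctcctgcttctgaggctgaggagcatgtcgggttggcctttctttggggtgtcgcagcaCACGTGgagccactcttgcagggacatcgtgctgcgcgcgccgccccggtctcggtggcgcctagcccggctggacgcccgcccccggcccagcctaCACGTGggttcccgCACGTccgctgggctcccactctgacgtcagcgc
Pgk1: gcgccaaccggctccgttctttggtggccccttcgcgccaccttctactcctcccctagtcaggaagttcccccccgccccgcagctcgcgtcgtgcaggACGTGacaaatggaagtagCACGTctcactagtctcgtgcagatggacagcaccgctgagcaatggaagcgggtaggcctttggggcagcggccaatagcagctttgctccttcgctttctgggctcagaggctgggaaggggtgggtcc
Egln3: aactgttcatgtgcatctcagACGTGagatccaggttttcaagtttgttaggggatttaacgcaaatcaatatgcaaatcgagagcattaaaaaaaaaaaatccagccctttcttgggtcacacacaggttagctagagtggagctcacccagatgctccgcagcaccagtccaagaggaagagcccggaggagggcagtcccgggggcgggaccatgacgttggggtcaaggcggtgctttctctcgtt

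Promoter windows of 250 bases before to 50 after a start were found for 31 of the 34 members, as 47 windows, some of which overlap. The core ACGTG, sought on both strands, was present in 26 of the 47 (55.3%) against 19.6% of all 32851 windows. The E-box CACGTG, which Myc binds and which contains the core, was present in 6 (12.8%) against 7.15%. The core outside any E-box was present in 24 (51.1%) against 13.6%. Member windows were richer in the dinucleotide CG, which the core contains, with a median of 21 against 7. Among the 6911 windows whose CG count lay between the member quartiles of 12.5 and 25.5, 18.6% held the core outside an E-box, and 10 of the 23 member windows in that range did. The Ldha window shown held the core 5 times when both strands are counted, of which 1 lay outside its 2 E-boxes. In Slc16a3 the cores began 27 and 14 bases before the start, in Pgk1 150 and 131, in Aldoa 126 and in Egln3 229. These matches are letters in a window and not measured binding sites. The 22 members with a core outside an E-box had a median JQ1 difference of 0.09 log2 in MEP, and the 9 without had 0.17. In LSK the medians were -0.07 and 0.10.

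Levels below are log2 of the processed scanner signal above the array's 75th percentile, and a difference is given in log2 relative to the median measured gene of the same comparison. Levels of different genes come from different probes and are not compared. The median gene itself lay 0.06 higher on JQ1 than on DMSO in LSK and 0.34 higher in MEP, and this was subtracted. Since each group is a single array, no test was made and no difference has a replicate check. Different probes of 1 gene disagreed with an SD of 0.26 in LSK and 0.39 in MEP for the JQ1 difference. For the cell type difference the SD was 0.37 on DMSO and 0.27 on JQ1. Such probes share the same arrays and RNA, so this SD holds no variation between arrays or samples. The signal error given by the scanner software was 10 to 20.8% for the members. A gene is counted as higher or lower where its difference reached 1.5-fold, which is 0.585 log2. Fewer cells of a type and less RNA per cell cannot be told apart in such sorted pools. The labels were checked against markers: Ly6a, which encodes Sca-1, read 4.49 and 4.28 on the LSK arrays against -0.32 and 0.21 on the MEP arrays, and the erythroid regulator Klf1 read -1.60 and -1.76 against 1.97 and 3.05 (DMSO, JQ1). Of the 10 LSK markers, 8 lay below the median gene in MEP against LSK on DMSO, while the stem cell marker Slamf1 was 5.1-fold higher in MEP and Mecom 1.83-fold. The DMSO MEP array stood apart. Its correlation with the other arrays over 23013 probes was 0.973 to 0.976, that among the other three arrays was 0.979 to 0.991, and the JQ1 difference in MEP and the cell type difference on DMSO both rest on it.

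The first group is the glycolytic enzymes themselves. In MEP, 14 of the 15 enzymes lay above the median gene on the JQ1 array, where 50% of all 12549 measured genes do, and their median difference was 0.40, or -0.13 against the spike-in probes without centring, where the median of all genes was -0.53. The enzyme median was 0.23 with quantile normalization and 0.74 without centring. Hk1, Aldoa and Tpi1 reached 1.5-fold higher, 3 of 15 against a background of 4.1% of genes, and Aldoc just reached 1.5-fold lower against 13.7%. The Aldoc call was lost with normexp and without centring, where 0 members were lower. None of the enzymes reached 2-fold, as did 0.98% of all genes on the higher side and 5.77% on the lower. In LSK the same enzymes had a median of 0.01, or 0.645 against the spike-in probes without centring, where the median of all genes was 0.635. Relative to the median gene 8 lay above and 7 below, and none reached 1.5-fold, against 2.34% of 12328 genes higher and 7.53% lower.

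Aldoa, which cleaves fructose bisphosphate into 2 triose phosphates, had the largest enzyme difference in MEP. It read 8.17 (DMSO) and 8.12 (JQ1) in LSK and 7.38 (DMSO) and 8.45 (JQ1) in MEP, which is 0.73 higher in MEP (1.66-fold) and 0.11 lower in LSK. DMSO MEP was the low array and JQ1 MEP the high one. Its isozyme Aldoc, the brain-type aldolase, went the other way. It read 2.02 (DMSO) and 1.67 (JQ1) in LSK and 1.73 (DMSO) and 1.48 (JQ1) in MEP, a difference of -0.59 in MEP and -0.41 in LSK. Both JQ1 arrays were below their DMSO arrays for Aldoc.

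Tpi1, the triose phosphate isomerase, read 6.51 (DMSO) and 6.69 (JQ1) in LSK and 5.67 (DMSO) and 6.65 (JQ1) in MEP. Its difference was 0.64 in MEP and 0.12 in LSK, and a second probe gave 0.32 in MEP. Gapdh, the dehydrogenase that couples the pathway to NADH, read 9.48 (DMSO) and 9.43 (JQ1) in LSK and 8.57 (DMSO) and 9.49 (JQ1) in MEP. For both genes the DMSO MEP array was alone at the low end. Gapdh missed 1.5-fold narrowly in MEP with 0.58, and its 7 probes ranged from 0.14 to 0.58, all above the median gene.

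The hexokinases, which trap glucose in the cell by phosphorylation, differed from each other. Hk1, the form used by red cells, read 5.52 (DMSO) and 5.95 (JQ1) in LSK and 5.64 (DMSO) and 6.60 (JQ1) in MEP, with differences of 0.62 in MEP and 0.37 in LSK. Here the JQ1 MEP array was the high one, and DMSO LSK, not DMSO MEP, was the lowest. The second Hk1 probe gave 0.36 in MEP and 0.33 in LSK. Hk2, an inducible form that Hif1a targets, read 2.0 (DMSO) and 2.28 (JQ1) in LSK and 1.40 (DMSO) and 2.01 (JQ1) in MEP, with 0.27 in MEP and 0.21 in LSK. Hk1 and Hk2 each read higher on JQ1 than on DMSO in both cell types. Hk3, a hexokinase that is not a member, differed by -0.55 in LSK and -0.08 in MEP.

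Phosphofructokinase commits glucose to the pathway and is built from liver, platelet and muscle subunits. Pfkl, the liver subunit, differed by 0.45 in MEP and 0.38 in LSK, and Pfkm, the muscle subunit, by 0.39 and 0.35. Relative to the median gene, both were higher on JQ1 to about the same degree in either cell type. This likeness depends on the centring. Against the spike-in probes Pfkl read 1.02 and Pfkm 0.99 in LSK. On that scale the median of all genes was 0.635 in LSK and -0.53 in MEP. Pfkp, the platelet subunit, was lower in LSK with -0.47, where its second probe gave -0.44, and read 0.17 in MEP, where the second probe gave -0.03. It had levels of 2.31 (DMSO) and 1.91 (JQ1) in LSK and 1.58 (DMSO) and 2.08 (JQ1) in MEP. In LSK the platelet subunit thus lay below the median gene and the other two above it.

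The remaining steps were close to the median gene in LSK, between -0.09 and 0.12, and higher in MEP. Gpi1, the phosphoglucose isomerase, had a MEP difference of 0.40, with 0.40 to 0.45 over its 3 probes. Eno1, the enolase, had 0.43 and Pkm, the pyruvate kinase, had 0.37. Ldha, which turns pyruvate into lactate, had 0.42 by its brightest probe, although its 3 probes ranged from 0.01 to 0.42. Pgk1, the first ATP-yielding enzyme of the pathway, had 0.28 and Pgam1, the mutase after it, had 0.07. Pkm showed the widest spread of levels among the enzymes, at 6.18 (DMSO) and 6.33 (JQ1) in LSK and 5.03 (DMSO) and 5.73 (JQ1) in MEP, and both MEP arrays lay below both LSK arrays.

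**Figure D1:**
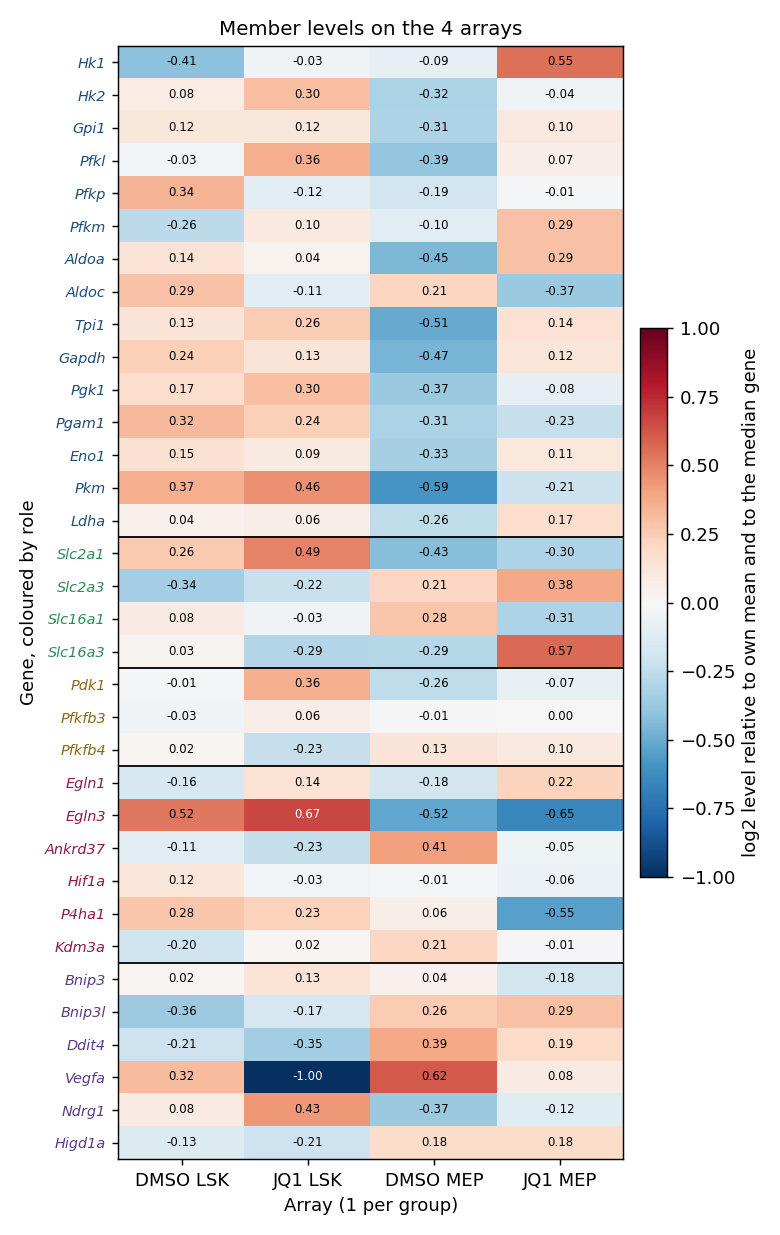
Level of each of the 34 genes on each of the 4 arrays in log2, as the difference from the gene's own mean over the arrays and from the median gene of that array; rows are genes coloured and ruled off by role, columns are arrays. The DMSO MEP column is the lowest for 12 of the 15 glycolytic enzymes in the top block, while Vegfa is lowest on JQ1 LSK with -0.997.

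Relative to the median gene, most enzymes shared a low DMSO MEP array, whereas against the spike-in probes that array was the higher one of both comparisons it enters (enzyme medians of -0.13 for JQ1 against it and 0.44 for it against DMSO LSK). After each gene was set to its own mean over the 4 arrays, the median enzyme read 0.14 (DMSO) and 0.12 (JQ1) in LSK and -0.32 (DMSO) and 0.10 (JQ1) in MEP. DMSO MEP was the lowest array for 12 of the 15 enzymes, against 30.1% of the 12016 genes measured on all 4 arrays. For the other 19 members it was the lowest in 4. Over all 34 members each of the other arrays was the lowest for 6, against 24.9% of genes for DMSO LSK, 18.3% for JQ1 LSK and 26.7% for JQ1 MEP. The enzymes are also brightly lit genes, with 10 of the 15 among the brightest 2403 of the 12016 measured genes. Of those 2403 genes, 69.5% lay above the median gene for JQ1 against DMSO in MEP, with a median of 0.15, whereas the 10 enzymes among them all did, with a median of 0.43. In LSK the same bright genes had a median of -0.01 and the 10 enzymes had 0.00.

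Other RNAs moved on the same array. The 14 immediate early genes measured, which respond within minutes to stimulation or handling, had a median of -1.61 for JQ1 against DMSO in MEP, and 13 of them were lower by at least 2-fold. Their summed signal, in multiples of the 75th percentile, was 510 on DMSO MEP and 154 to 184 on the other arrays. The 4 nuclear noncoding RNAs Malat1, Neat1, Kcnq1ot1 and Xist were all lower in MEP, with a median of -3.12, and summed to 78.5 on DMSO MEP against 9.93 to 14.1 elsewhere. Relative to the median gene, erythroid markers read higher in MEP on JQ1, with 9 of 12 above it, a median of 0.28 and summed signals of 200 (DMSO) and 303 (JQ1). Of the 12, 4 were higher by 1.5-fold and 2 lower, against 4.1% and 13.7% of all genes. Against the spike-in probes the median of all genes in MEP was -0.53, so these directions depend on the centring. Granulocytic and monocytic markers were higher in MEP on JQ1 too, with 10 of 11 above the median gene, a median of 0.48 and sums of 1259 and 2218, and none was below background on either MEP array. In LSK they went the other way, with a median of -0.63 over 8 measured and sums of 1790 (DMSO) and 1129 (JQ1). Taking LSK on DMSO, LSK on JQ1, MEP on DMSO and MEP on JQ1 in turn, the LSK markers summed to 278, 349, 126 and 137, and the lymphoid markers summed to 408, 217, 87.7 and 55.2, with Pax5 not above background on any. In the same order, the mast and basophil markers summed to 317, 268, 43.1 and 45.0, the megakaryocytic markers to 20.9, 14.8, 117 and 110, and the stromal and endothelial markers to 48.9, 35.6, 23.0 and 34.95, with the endothelial cadherin Cdh5 not above background on any. Such sums are weighted to bright probes. The lymphoid markers had a median JQ1 difference of -2.43 in LSK and -1.84 in MEP. Among them Dntt, at 7.52 (DMSO) and 7.46 (JQ1) in LSK, differed there by only -0.12. The part of these RNAs and cells in the enzyme difference was not tested.

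The carriers split by substrate and by isoform. Of the 4, Slc16a3 (MCT4), the lactate exporter of strongly glycolytic cells and a Hif1a target, had the largest JQ1 difference of all members in MEP. It read 2.28 (DMSO) and 2.01 (JQ1) in LSK and 1.75 (DMSO) and 2.94 (JQ1) in MEP, so JQ1 MEP was the highest array and DMSO MEP the lowest before centring. The difference was 0.85 in MEP (1.80-fold) and -0.33 in LSK (1.26-fold lower), and its 2 probes gave 0.80 and 0.85 in MEP and both -0.33 in LSK. The MEP minus LSK contrast of the JQ1 difference was 1.17, the largest among the 34 and the only one of 2-fold, where 3.31% of 12016 genes were that far on the higher side, and it read 0.02 against the spike-in probes. Its scale rests on the DMSO MEP array, but under JQ1 alone Slc16a3 was 0.86 higher in MEP than in LSK.

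Slc16a1 (MCT1), the more widespread lactate carrier, went the opposite way in MEP. Its levels were dim and narrow, at -2.54 (DMSO) and -2.60 (JQ1) in LSK and -2.55 (DMSO) and -2.80 (JQ1) in MEP, and its difference of -0.59 in MEP just reached 1.5-fold. It was -0.26 before the median gene was subtracted, -0.23 with normexp and -0.08 with quantile normalization, so the call was lost in each. The glucose carriers did not reach 1.5-fold under JQ1: Slc2a1 (GLUT1) had 0.12 in MEP and 0.23 in LSK, and Slc2a3 (GLUT3) had 0.16 and 0.11. They differed instead by cell type, in opposite directions. Slc2a1 read 2.2 (DMSO) and 2.49 (JQ1) in LSK and 1.31 (DMSO) and 1.76 (JQ1) in MEP, so MEP differed from LSK by -0.67 on DMSO and by -0.80 on JQ1. Slc2a3 read 2.17 (DMSO) and 2.34 (JQ1) in LSK and 2.51 (DMSO) and 3.01 (JQ1) in MEP, which is 0.56 and 0.60. Both LSK arrays were above both MEP arrays for Slc2a1 and below them for Slc2a3.

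Of the regulators of flux, none reached 1.5-fold in either cell type. Pdk1, which keeps pyruvate out of the mitochondrion by blocking pyruvate dehydrogenase, read 1.24 (DMSO) and 1.67 (JQ1) in LSK and 0.80 (DMSO) and 1.31 (JQ1) in MEP, a difference of 0.37 in LSK and 0.17 in MEP. Pfkfb3 and Pfkfb4 make the activator of phosphofructokinase. Pfkfb3 differed by 0.09 in LSK and 0.00 in MEP, with its 2 probes on either side of the median gene in both, and Pfkfb4 by -0.26 and -0.04.

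**Figure D2:**
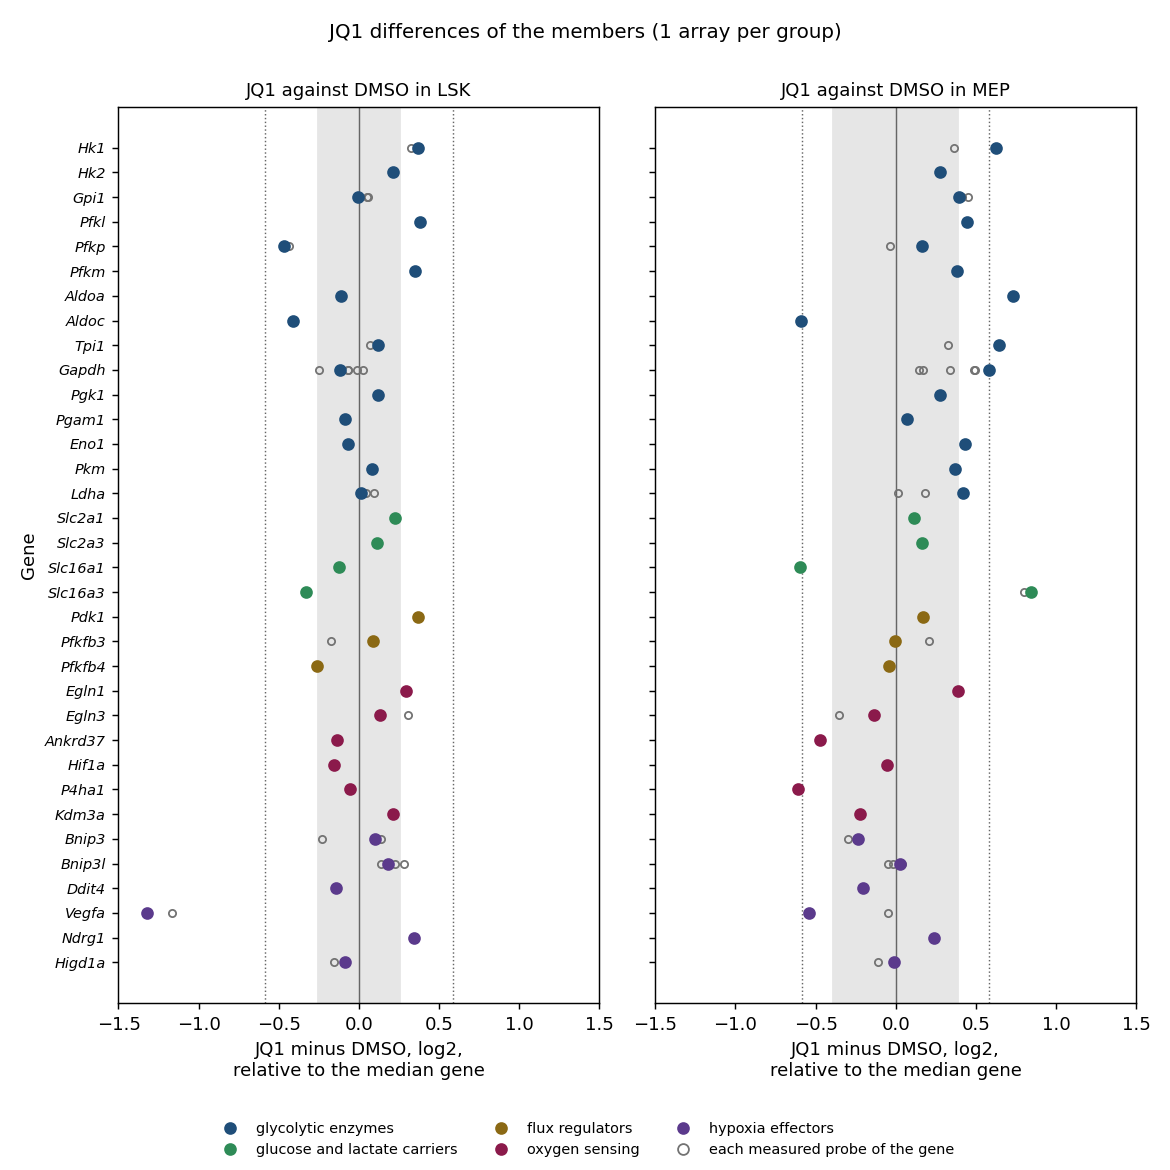
JQ1 minus DMSO difference of each gene in log2 relative to the median gene, in LSK (left) and MEP (right); filled points are the brightest probe coloured by role, open points each other probe, the grey band is 1 SD between probes of a gene and dotted lines mark 1.5-fold. In MEP the enzymes sit to the right of the median gene except Aldoc at -0.59, and in LSK the member outside the dotted lines is Vegfa at -1.32.

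The group named oxygen sensing holds Hif1a, Egln1 and Egln3 together with the hypoxia response genes P4ha1, Ankrd37 and Kdm3a. In MEP 1 of these 6 lay above the median gene and their median was -0.18. The lowest were P4ha1 (-0.61), Ankrd37 (-0.48) and Kdm3a (-0.22), so the median does not describe the sensing genes alone. These are dimmer genes than the enzymes, and when all genes are split by signal into 5 equal bins, the 3 dimmest bins, which hold these 6, had 31.7%, 38.1% and 49.9% of genes above the median gene. Hif1a, the factor itself, was nearly flat, at 0.86 (DMSO) and 0.77 (JQ1) in LSK and 0.53 (DMSO) and 0.81 (JQ1) in MEP, with differences of -0.16 in LSK and -0.05 in MEP. Its activity is mostly set by protein stability, which an array does not measure. Egln1, the main prolyl hydroxylase that marks Hif1a for destruction and is itself a Hif target, was the member above the median gene, with 0.39 in MEP and 0.29 in LSK from a dim probe that gave 0.90 in MEP with quantile normalization and -0.05 in LSK with normexp.

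Relative to the median gene, Egln3, the most inducible of the prolyl hydroxylases, was the member with the largest difference between the cell types. It read 2.26 (DMSO) and 2.45 (JQ1) in LSK and 1.01 (DMSO) and 1.21 (JQ1) in MEP, so both LSK arrays were more than 2-fold above both MEP arrays. After centring, MEP against LSK was -1.03 under DMSO and -1.32 under JQ1, which is 2.04-fold and 2.49-fold lower. Its second probe gave -0.91 and -1.58. Against the spike-in probes the median of all genes was 0.91 under DMSO and -0.24 under JQ1. The 2-fold size under DMSO therefore depends on the centring. Genes lower by 2-fold made up 4.32% of all genes in the first comparison and 4.01% in the second. Its JQ1 differences were small, 0.13 in LSK and -0.14 in MEP.

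P4ha1, a collagen prolyl hydroxylase subunit and Hif target with 1 probe above background, read -1.71 (DMSO) and -1.70 (JQ1) in LSK and -2.13 (DMSO) and -2.40 (JQ1) in MEP. It differed by -0.05 in LSK and by -0.61 in MEP, 1.53-fold lower, and passed 1.5-fold lower in MEP as did Aldoc and Slc16a1. With normexp it was -0.18 and with quantile normalization -0.16, so the call was lost. Ankrd37, a small Hif target, had -0.14 in LSK and -0.48 in MEP, where DMSO MEP was its highest array. Kdm3a, a histone demethylase induced by hypoxia, had 0.21 in LSK and -0.22 in MEP.

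The hypoxia effectors held the largest JQ1 difference of all members. Vegfa, the vascular growth factor, read 0.73 (DMSO) and -0.53 (JQ1) in LSK and 0.83 (DMSO) and 0.62 (JQ1) in MEP, so JQ1 LSK stood alone at the low end. The difference was -1.32 in LSK, 2.50-fold lower, with its second probe at -1.17, and -0.54 in MEP, where the second probe gave -0.05. Against the spike-in probes without centring, the LSK value was -0.69, short of 2-fold, where the median of all genes was 0.635. Relative to the median gene, Vegfa was the one member past either fold in LSK, where 3.22% of genes were lower by 2-fold. Under JQ1 it was 1.08 higher in MEP than in LSK (3.94% of genes were that far higher) and under DMSO 0.31 higher, where its second probe gave -0.14.

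The mitophagy receptors Bnip3 and Bnip3l were near the median gene under JQ1, with 0.10 and 0.18 in LSK and -0.23 and 0.03 in MEP. Bnip3l, also called Nix, clears mitochondria from maturing red cells. It read 3.85 (DMSO) and 4.10 (JQ1) in LSK and 4.27 (DMSO) and 4.63 (JQ1) in MEP, and was higher in MEP than in LSK by 0.63 under DMSO and 0.46 under JQ1, with its 4 probes within 0.63 to 0.72 and 0.45 to 0.47. Bnip3 did not share this difference, with 0.03 and -0.31, although its 3 probes disagreed under DMSO from -0.85 to 0.03.

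Ddit4, an inhibitor of mTORC1 induced by hypoxia and other stress, was likewise higher in MEP, by 0.61 under DMSO and 0.54 under JQ1. It read 4.05 (DMSO) and 3.96 (JQ1) in LSK and 4.44 (DMSO) and 4.57 (JQ1) in MEP, and differed by -0.15 and -0.20 under JQ1 in LSK and MEP. Ndrg1, a stress-induced gene, was lower in MEP by 0.43 and 0.55, and on JQ1 it read 0.34 higher in LSK and 0.24 higher in MEP. Higd1a, a mitochondrial protein of the hypoxia response, had JQ1 differences of -0.09 in LSK and -0.01 in MEP, and was higher in MEP than in LSK by 0.33 on DMSO and 0.39 on JQ1.

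**Figure D3:**
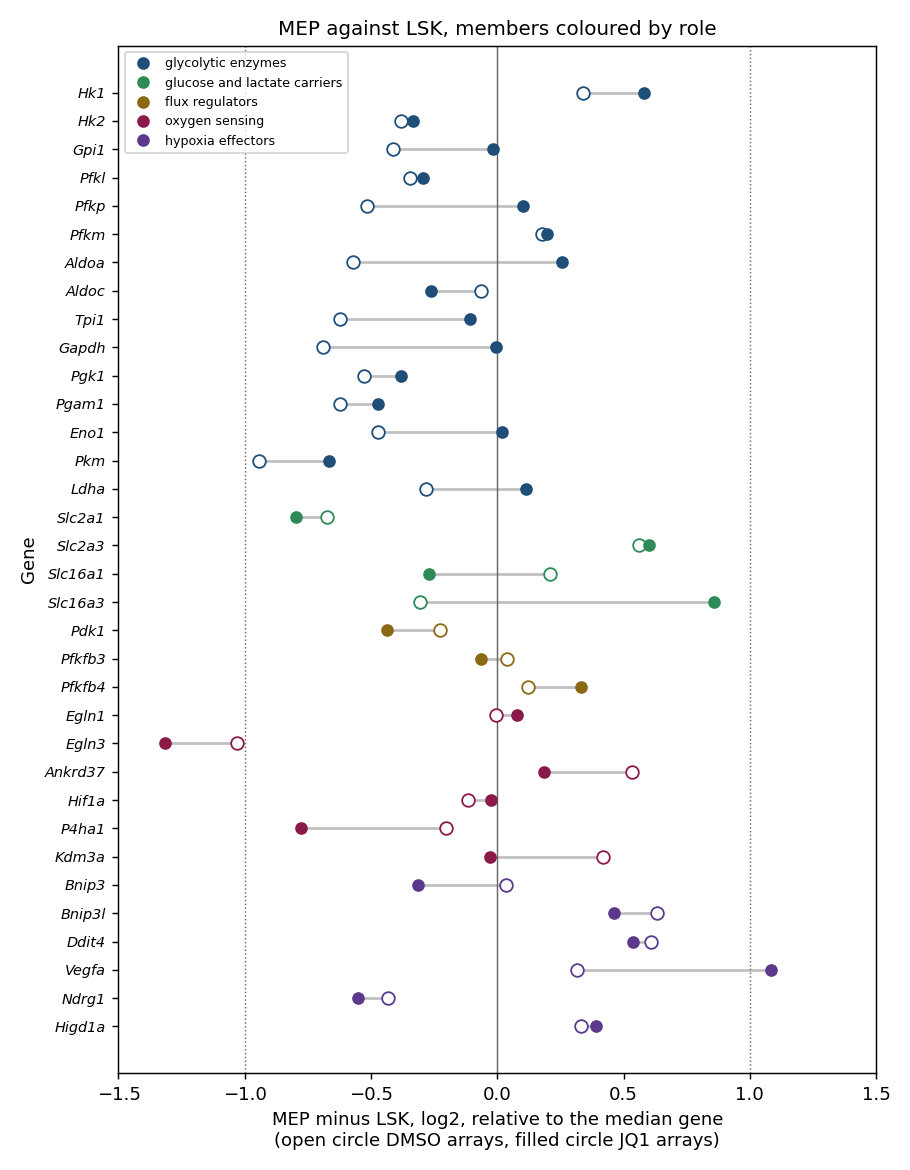
MEP minus LSK difference of each gene in log2 relative to the median gene, with open circles for the 2 DMSO arrays, filled circles for the 2 JQ1 arrays, and dotted lines at 2-fold. Most enzymes move toward 0 from DMSO to JQ1, Egln3 lies beyond 2-fold lower in both, and Vegfa is beyond 2-fold higher under JQ1 with 1.08.

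Between the cell types, the enzymes were lower in MEP under DMSO and near the median gene under JQ1. Under DMSO 13 of 15 lay below the median gene with a median of -0.47, or 0.44 against the spike-in probes, where all genes had 0.91, and Tpi1, Gapdh, Pgam1 and Pkm were lower by 1.5-fold or more, 4 of 15 against 11.9% of 12407 genes. Under JQ1, which does not use the DMSO MEP array, 9 of 15 lay below with a median of -0.02, and Pkm alone was lower by 1.5-fold, against 10.8% of 12262 genes. Pkm was at -0.94 under DMSO and -0.67 under JQ1, Pgam1 at -0.62 and -0.47 and Pgk1 at -0.53 and -0.38, while Gapdh went from -0.69 to -0.01. Hk1 was the enzyme highest in MEP, with 0.34 and 0.58.

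Over all 34 members the median was 0.04 in LSK and 0.16 in MEP for JQ1 against DMSO, and for the cell types it was -0.22 on DMSO and -0.02 on JQ1. In MEP 4 of 34 members were higher by 1.5-fold (Slc16a3, Aldoa, Tpi1, Hk1) against 4.1% of all genes, and 3 were lower against 13.7%. In LSK none was higher, against 2.34%, and Vegfa was lower, against 7.53%. For MEP against LSK, under DMSO 2 were higher (Bnip3l, Ddit4) against 14% of all genes and 6 lower against 11.9%. None was higher by 2-fold, against 5.68%. Under JQ1 Slc16a3, Vegfa and Slc2a3 were higher against 8.53%, and Slc2a1, P4ha1, Egln3 and Pkm lower against 10.8%. Both JQ1 comparisons put 14 members above the median gene, 9 lay below it in both, 7 were above in MEP alone and 4 in LSK alone. Over all 12016 genes these shares were 27.5%, 26.8%, 22.7% and 23.1%. The JQ1 difference in MEP lay above that in LSK, as a signed value, by 1.5-fold or more for Slc16a3 (1.17), Aldoa (0.83), Vegfa (0.77), Gapdh (0.69) and Pfkp (0.62), 5 of 34 against 9.07% of all genes, although against the spike-in probes none kept 1.5-fold and all but Slc16a3 turned. Vegfa was below the median gene in both, by less in MEP, and Pfkp was below it in LSK alone. The signed difference was lower in MEP by that much for none, against 13.9% (5.92% by 2-fold). Against the spike-in probes, where all genes had -1.15, the turned values were -0.32 for Aldoa, -0.38 for Vegfa, -0.46 for Gapdh and -0.53 for Pfkp.

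Further genes of the same pathways were read from lists that are separate from the members. The pentose phosphate pathway, which branches off glycolysis to make NADPH and ribose, was read first. In MEP all 7 of its genes lay above the median gene on JQ1, with a median of 0.41, or -0.12 against the spike-in probes and 0.22 with quantile normalization. The 3 that reached 1.5-fold, against 4.1% of all genes, were the NADPH-producing dehydrogenases Pgd (0.72) and G6pdx (0.62) and the ribose phosphate isomerase Rpia (0.60). G6pdx read 4.56 (DMSO) and 4.35 (JQ1) in LSK and 3.81 (DMSO) and 4.77 (JQ1) in MEP, so DMSO MEP was low here as well. In LSK 5 of the 7 lay below the median gene, with a median of -0.27, or 0.36 against the spike-in probes, and none past 1.5-fold.

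Other glycolysis genes were mixed. Of 20 measured in MEP, 3 were higher by 1.5-fold and 3 lower, where 4.1% and 13.7% of all genes were. The muscle mutase Pgam2 (1.72), the red cell pyruvate kinase Pklr (0.85) and Gpd1l (0.84), a relative of glycerol phosphate dehydrogenase, were the higher ones. The carrier Slc16a7 (-1.04, but -0.33 with normexp), the liver form Pfkfb1 (-0.98) and the muscle enolase Eno3 (-0.65) were the lower ones. Pklr read -2.59 on DMSO MEP and -1.40 on JQ1 MEP and was not well above background on either LSK array, which puts it at least 2.02-fold higher in MEP under DMSO and at least 5.06-fold higher under JQ1, bounds that take the lowest signal above background on the LSK array. In LSK, 1 of 19 was higher (Pfkfb1, 0.78) against 2.34% of genes and 4 were lower against 7.53%, among them the glycerol phosphate dehydrogenase Gpd1 (-1.28, or -0.69 with normexp), the hexose carrier Slc2a6 (-0.85) and Pgam2 (-0.72, or -0.39 with normexp).

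The list for pyruvate entry to the mitochondrion mixes genes that promote entry with kinases that, like Pdk1, block pyruvate dehydrogenase. Its median was 0.13 in LSK and 0.26 in MEP over 11 measured, which gives no direction of entry. The only gene of the list past 1.5-fold was such a kinase, Pdk2 (0.72 in MEP). Other hypoxia genes had medians of -0.02 over 31 in LSK and 0.09 over 32 in MEP. In MEP the collagen prolyl hydroxylase subunit P4ha2 (1.14, or 0.59 with normexp) was higher, against its relative P4ha1 at -0.61, and Hif3a (0.72) was higher by its brightest probe, while its other measured probe gave 0.08. Wsb1 (-0.85), heme oxygenase Hmox1 (-0.80) and the repressor Bhlhe40 (-0.59) were lower. In LSK the secreted glycoprotein Stc2 was lower by 1.46, 2.74-fold, although with normexp it was -0.58 and short of 1.5-fold, and Wsb1 by 0.60, and none was higher by 1.5-fold. All 5 glucose sensing genes lay below the median gene in MEP by their brightest probe, although Mlxip was at 0.24 with the mean over probes. The factor Mlxipl (ChREBP) read 2.40 (DMSO) and 2.50 (JQ1) in LSK and 3.54 (DMSO) and 1.92 (JQ1) in MEP. Its difference was -1.96 in MEP by that probe and -0.33 by its second, DMSO MEP being the high array, and its relative Mlxip had -0.64 from the 1 of its 2 probes that was measured. Txnip, a target of both factors that limits glucose uptake, had -0.15 in LSK and -0.47 in MEP.

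**Figure D4:**
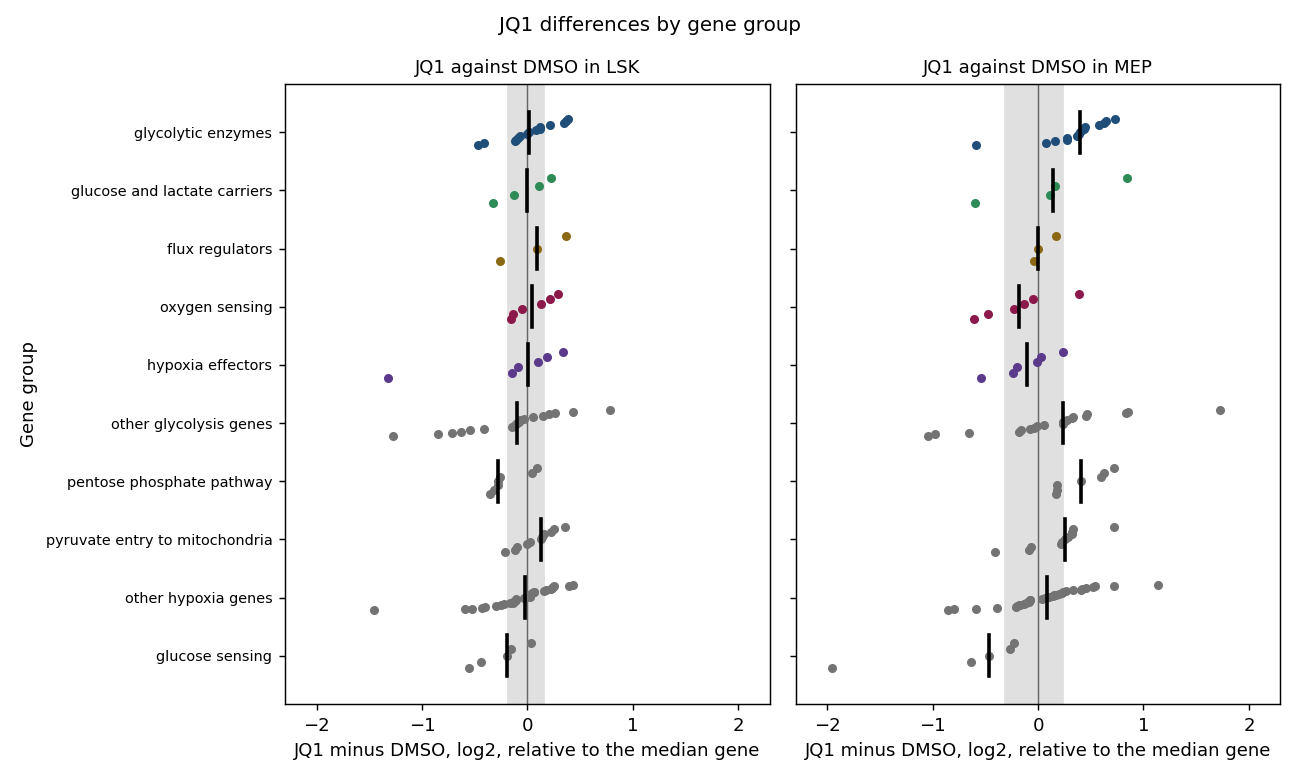
JQ1 minus DMSO difference in log2 relative to the median gene for every measured gene of each role group and of the separate pathway lists, in LSK (left) and MEP (right); black bars are group medians and the grey band holds the range between the quartiles of all measured genes. In MEP the medians of the glycolytic enzymes (0.40), the pentose phosphate pathway (0.41), the pyruvate entry list with its blocking kinases (0.26) and other glycolysis genes (0.24) lie right of the band, which ends at 0.24. All are below 0 against the spike-in probes (-0.13, -0.12, -0.27 and -0.28). In LSK the enzyme median is 0.01, or 0.645 against the spike-in probes, where the median of all genes is 0.635.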

How the data were processed

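RNA of 4 sorted bone marrow samples was hybridised to 4 one-colour Agilent mouse arrays, 1 per group. Per the labels, 20 ng of total RNA was amplified and labelled with Cy3 together with spike-in controls. Scans of array design 028005 (mm9) were read by the authors in Feature Extraction 10.7.1.1 under protocol GE1_107_Sep09, per the file headers. The deposited scanner output gives an intensity per spot after background subtraction, with marks of other kinds for spots that are well above background, saturated or outliers. The deposited table holds a ratio: where it exceeds 1, the scanner signal divided by it was constant within 1% for 100% of probes on each array, so it is the signal over 1 number per array. The software behind the table was not given in the sources used here.

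From the intensity, log2 values were averaged over a probe's unmarked spots and reduced by the array's 75th percentile. Probes were named through RefSeq accessions (GRCm38.p6), which gave 28026 of 55681 probes (50.3%) a single symbol. A gene was represented by its brightest probe and counted as measured where that probe was well above background on both arrays compared. Differences were centred on the median measured gene. No spot was saturated. Between 45.2% and 53.2% of probes per array were well above background, and the number of arrays limits the precision. All 34 members are named or counted. Of each other pathway list at most the 3 highest and 3 lowest genes past 1.5-fold in a JQ1 comparison are named. Other genes named (Pax5, Cdh5, Klf1, Ly6a, Txnip, Hk3, Dntt, the noncoding RNAs) were chosen after their values were seen. The members and lists were chosen with earlier results of these data known. The 8 alternatives were the deposited table, normexp correction (limma 3.58.1, offset 50, on the median spot signal, used in place of a mean signal), quantile normalization, the mean over probes, no background filter, genes above the median signal, no centring, and scaling to 8 spike-in probes. Calculations used Python 3.11.15, pandas 2.3.3 and R 4.3.3, and were tested on simulated data.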

Additional observations from a re-analysis of the deposited data

Results flagged for a closer look

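Pfkfb1 and Pgam2, which are not members, went opposite ways by at least 1.5-fold in the 2 cell types under JQ1. For Pfkfb1 the difference in MEP minus that in LSK was -1.77, from 0.78 in LSK and -0.98 in MEP. For Pgam2 it was 2.43, from -0.72 in LSK and 1.72 in MEP. With normexp Pgam2 was -0.39 in LSK, and against the spike-in probes -0.08, so its 1.5-fold difference there was lost. Each gene has 1 probe, and with 1 array per group neither difference was tested. None of the 34 members did so.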

How the results depend on the processing

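No paired analysis was possible because the groups share only replicate number 1, and no array could be left out in turn. A fit that joins both cell types, with cell type as the pair, was not run. With the deposited table every median and count over the members stayed within 1.5 times (counts) or 1 probe SD (medians) of its value. That outcome was fixed in advance and is no separate check. The table is the signal over 1 number per array, and centring removes that number. A probe SD is wide for the median of a list. In MEP the member median was 0.16 and ran from 0.05 (quantile normalization) to 0.50 (no centring), and the enzyme median of 0.40 from 0.23 to 0.74, over the settings other than spike-in scaling. Under spike-in scaling without centring the member medians were 0.68 in LSK and -0.36 in MEP for the JQ1 difference, 0.70 for MEP against LSK on DMSO and -1.09 for the contrast of the JQ1 differences, MEP less LSK, and the enzyme medians were 0.65, -0.13, 0.44 and -0.87. The median of all genes was then 0.635 in LSK and -0.53 in MEP. Between the cell types it was 0.91 on DMSO and -0.24 on JQ1, and for the contrast -1.15. The member counts follow these shifts. The members higher by 1.5-fold numbered 19 in LSK, 0 in MEP, 20 between the cell types on DMSO and 0 for the contrast. Those lower numbered 9 in MEP, 0 on DMSO and 8 on JQ1 between the cell types, and 29 for the difference. Signs turned under this scaling for MEP against LSK under DMSO in Tpi1 (0.29), Gapdh (0.22), Pgam1 (0.29) and Slc2a1 (0.24), for the difference in Pfkp (-0.53), Aldoa (-0.32), Gapdh (-0.46) and Vegfa (-0.38), and for Wsb1 in LSK (0.04). With the mean over probes they turned in MEP for Hif3a (-0.18) and Mlxip (0.24).

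The share of all genes past 1.5-fold is not given here for the alternatives, so their counts describe the setting more than the members. Without centring, 14 members were higher and 0 lower in MEP, 0 higher and 13 lower for MEP against LSK under DMSO, 5 higher under JQ1, and 9 higher for the difference. The median gene itself then lay at 0.34, -0.22, 0.07 and 0.285 in these comparisons. In MEP 2 were higher and 1 lower with quantile normalization, with the mean over probes and with genes above the median signal, 2 were higher without a background filter, and 0 were lower with normexp. For the difference 3 were higher with normexp, the mean over probes, bright genes and no filter, and 3 lower with no filter. For MEP against LSK under DMSO 3 were lower with quantile normalization, and 4 were higher and 2 lower with no filter. Among bright genes 0 were lower in LSK, where Vegfa was left out, and 1 was higher for MEP against LSK under JQ1. The cause of the other changes was not tested.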
